A study of Mus musculus with 2 samples.

Results

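The 41 genes described here serve protein folding in the endoplasmic reticulum (ER) and the unfolded protein response, the signalling system that senses misfolded protein in that compartment. They were taken from the 43346 gene rows by symbol and fall by role into 7 sensors and transcription factors, 15 chaperones, co-chaperones and prolyl isomerases, 11 disulfide isomerases and oxidases, and 8 degradation genes. All 41 were found. RNA was from whole pancreas of 1 female C57BL/6J mouse aged 10 weeks, with no genetic change or treatment named in the labels, and polyadenylated RNA was sequenced in 2 technical replicate libraries of that same tissue. The 2 libraries form 1 group, so there is no comparison between conditions, and the spread between them is technical only. Per the labels, replicate 2 was added after the first publication of the data.

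The ER is where secreted and membrane proteins fold. Chaperones bind unfolded chains, disulfide isomerases form and rearrange cysteine bonds, and chains that fail to fold are drawn back to the cytosol and degraded. When unfolded protein builds up, 3 membrane sensors respond: IRE1 (Ern1) splices the Xbp1 mRNA, PERK (Eif2ak3) slows translation and favours ATF4, and ATF6 is cut to release a transcription factor. Acinar cells of the pancreas make large amounts of digestive enzymes and hold a dense rough ER, and beta cells of the islets fold proinsulin.

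The sums of estimated counts were 9441559 (replicate 1) and 9797569 (replicate 2). The lincRNA Gm42418 held 16.9% and 42.8% of them, which lowers the share of counts left for all other genes in replicate 2. Levels corrected for transcript length need not follow it. All 10 acinar markers and all 10 islet markers stood at 1 TPM (a transcript level corrected for length and scaled to a fixed total) or more in both libraries, at 13.1% and 16.2% of all TPM for the acinar list and 2.20% and 2.37% for the islet list. Of 8 plasma cell markers 2 passed that level, with a list sum of 12.2 and 10.1 TPM. In whole tissue, fewer cells of a type and less RNA per cell cannot be told apart, and a member's RNA cannot be divided between acinar and islet cells.

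The listed members were well expressed, while the 86 other genes of the pathway, described below, had medians of 6.06 and 5.86 TPM. The lowest member, Trib3, was the only one under 1 TPM in either library, and 34 of the 41 were at 10 TPM or more in both. The median member stood at 39.9 TPM in replicate 1 and 39.6 TPM in replicate 2, against 4.98 and 4.14 TPM for the 10332 genes at 1 TPM or more in both libraries. In each library 26 members ranked among the 1000 most abundant genes. Together the members held 0.354% and 0.385% of all TPM, and 0.662% and 0.689% once Gm42418, Gm26917, Lars2 and the genes of the mitochondrial genome with their copies in the nucleus were left out. Their order was nearly the same in both libraries, with a Spearman rho of 0.963 across the 41 genes, which are not independent replicates and share both libraries.

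**Figure D1:**
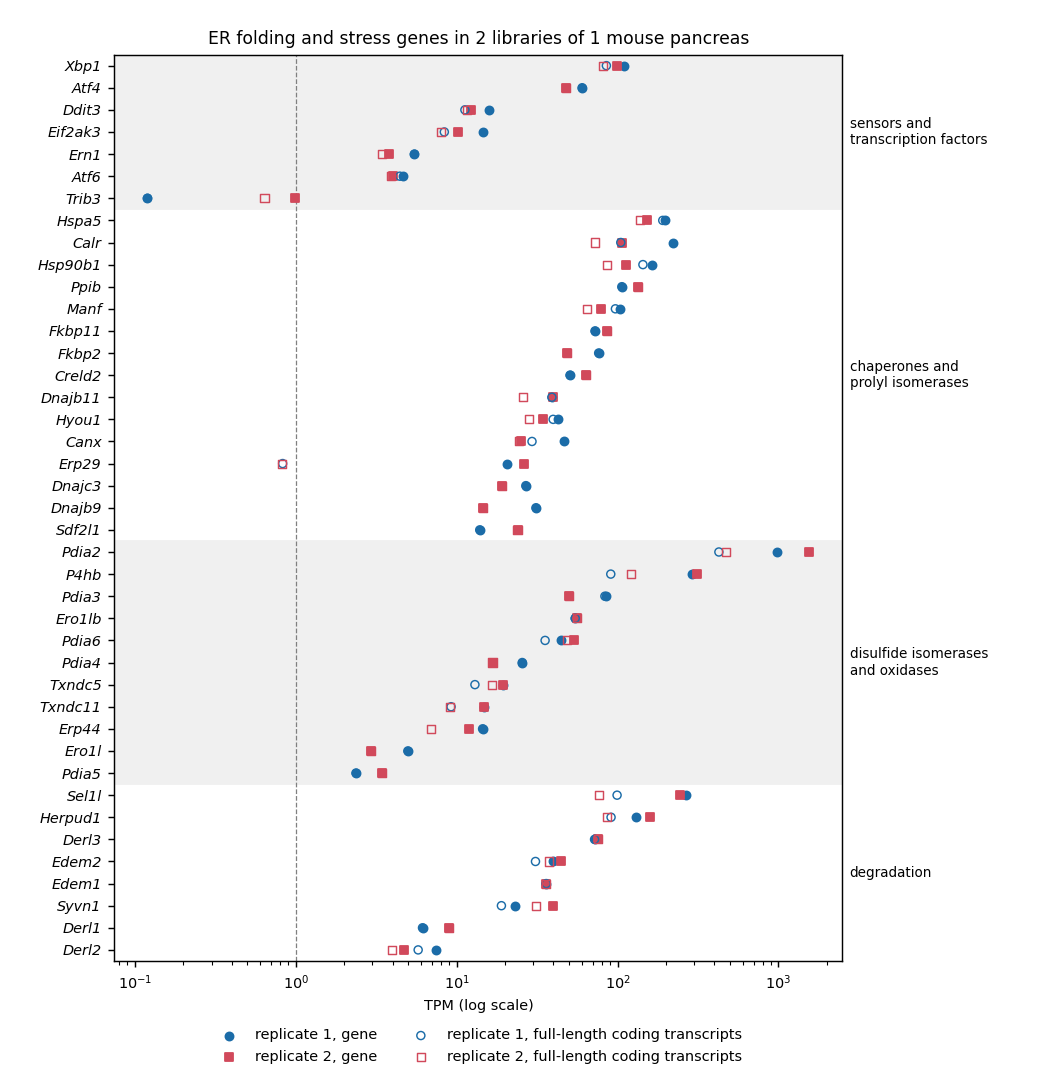
Level of each member in TPM (log axis) by role, with circles for replicate 1 and squares for replicate 2. Filled symbols are the whole gene and open symbols the transcripts with at least 90% of the longest coding sequence among its deposited transcripts. Pdia2 lies furthest right at 980 and 1555 TPM, Trib3 is the only gene with a filled symbol left of the dashed line at 1 TPM, and the open symbols of Erp29, Sel1l and P4hb lie far left of the filled ones.

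Several members carry the same short element before their transcription start. The ER stress element, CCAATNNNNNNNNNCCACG, pairs a CCAAT box with a CCACG block that ATF6 and XBP1 bind, and it was first described in genes of this kind, so its presence in some members is textbook knowledge. It was searched on both strands of RefSeq promoter windows on GRCm38.p6, each with 250 bases before the start and 50 from it on. A window was found for 36 members. Atf6, Hyou1, Manf, Erp29 and Derl1 had none in the table. An exact element lay in the windows of 10 of the 36 members, or 27.8%, against 37 of all 27025 genes with a window, or 0.137%. The 10 members were thus 10 of the 37 genes. Of 69 other pathway genes with a window 1 held it, Calr4. The elements are shown to let the bases between the 2 fixed blocks be compared. Each is read 5′ to 3′ along its own strand, with the fixed blocks in capitals.
Hspa5, chr2:34772025-34772043, same strand as the gene: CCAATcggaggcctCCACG
Hsp90b1, chr10:86705638-86705656, same strand: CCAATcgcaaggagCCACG
Hsp90b1, chr10:86705533-86705551, opposite strand: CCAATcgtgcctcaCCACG
Calr, chr8:84847075-84847093, opposite strand: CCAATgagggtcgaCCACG
Canx, chr11:50325800-50325818, same strand: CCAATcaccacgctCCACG
Creld2, chr15:88819520-88819538, opposite strand: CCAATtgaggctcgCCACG
Dnajc3, chr14:118937827-118937845, same strand: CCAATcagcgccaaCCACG
Pdia6, chr12:17266491-17266509, same strand: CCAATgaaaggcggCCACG
Ero1lb, chr13:12565682-12565700, opposite strand: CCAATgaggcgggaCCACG
Syvn1, chr19:6046532-6046550, same strand: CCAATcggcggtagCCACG
Derl3, chr10:75893242-75893260, opposite strand: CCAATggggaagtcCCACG

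By role, the element was in 6 of 12 chaperone windows, 2 of 11 disulfide windows, 2 of 7 degradation windows and 0 of 6 sensor windows. Hsp90b1, the ER form of the heat shock protein HSP90, was the only member with 2 exact copies. The copy of Hspa5 began 65 bases before the start, that of Syvn1 44 bases before and that of Ero1lb 201 bases before. With 1 mismatch allowed the count rose to 19 members, or 52.8%, against 1.72% of all genes. Among those added, the Ddit3 element reads CCAATcagaaagcgGCACG, with the substitution C15G counted from the first base of the element. A match describes the letters only and shows no binding.

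Of 3 related elements, each was in fewer member windows than the exact stress element. The second form of the stress element, ATTGGNCCACG, was in the windows of Dnajb11 and Herpud1, against 12 of all 27025 genes. The core TGACGTG of the unfolded protein response element was in 4 of 36 windows (Hspa5, Fkbp11, Txndc5 and Txndc11), or 11.1%, against 2.22% of all genes. The core TGATGCAA of the element that ATF4 binds with its partners was in 1, Herpud1, against 1.03% of all genes. The plain CCAAT box, which every stress element contains, was in 29 of 36, or 80.6%, against 41.1%. Levels overlapped between members with and without an exact stress element: the 10 with it ranged from 23.2 to 221 TPM in replicate 1 with a median of 52.6, and the 26 without it from 0.12 to 980 TPM with a median of 33.6. In replicate 2 the ranges were 19.1 to 152 TPM, with a median of 59.9, and 0.99 to 1555 TPM, with a median of 29.9.

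**Figure D2:**
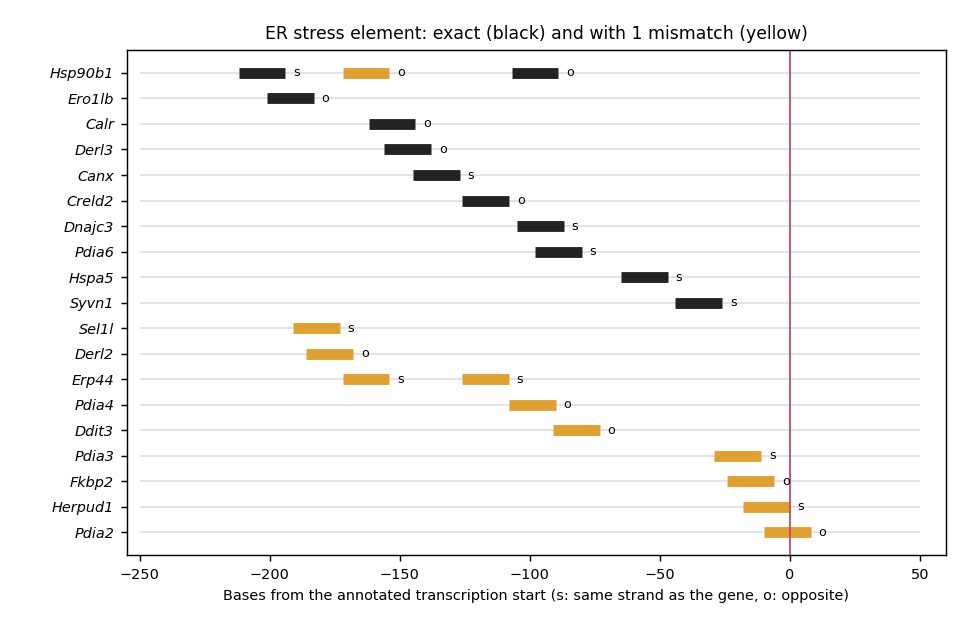
Position of the ER stress element in the promoter windows of the 19 members that hold it, in bases from the annotated start. Black bars are exact matches and yellow bars have 1 mismatch. The exact matches all lie before the start, in 10 genes, and Hsp90b1 holds 2, while the 2 bars of Erp44 are 1 site seen from 2 annotated starts.

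Among sensors and transcription factors the 3 sensors were lower than Xbp1 and Atf4 in both libraries. Ern1 was at 5.47 TPM in replicate 1 and 3.80 TPM in replicate 2, a mean of 4.64 ± 1.18 (SD, n = 2 technical libraries). Atf6 was at 4.62 and 4.05 TPM, so it overlapped with Ern1. Eif2ak3 was higher than both in each library, at 14.5 and 10.3 TPM. Xbp1, whose product drives ER growth and chaperone genes, was at 110 and 99.1 TPM, and Atf4, the transcription factor of the PERK branch, at 60.3 and 48.0 TPM. Ddit3 (CHOP), which ATF4 induces and which promotes cell death under lasting stress, was at 16.0 and 12.2 TPM. Trib3, a pseudokinase induced by ATF4 and CHOP, was at 0.12 and 0.99 TPM from 2 and 10 counts. The first of these lies under the 3 counts that a count of 0 allows, and Trib3 was left out of the library test. In order, Xbp1 exceeded Atf4, which exceeded Ddit3, in both libraries.

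Xbp1 (ENSMUSG00000020484, chromosome 11, 5520659 to 5525893 on mm10) is controlled by the removal of a short stretch from its coding sequence. IRE1 cuts at 2 loops that read CNGCAGC after the third base of each, and a search for such loops 26 bases apart found 1 pair in each of Xbp1-201, Xbp1-203 and Xbp1-204 of GENCODE M21. In Xbp1-201 the stretch covers coding positions from 479 on, at chr11:5524279-5524304. It is shown with the bases next to it, with the removed part in capitals.
Xbp1 stretch removed by IRE1: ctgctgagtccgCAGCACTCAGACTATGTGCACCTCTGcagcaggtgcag
No M21 transcript of Xbp1 joins exons across it. Xbp1-202, a retained intron form, does not hold it. The deposited transcript levels therefore hold no value for spliced Xbp1. Xbp1-201 held 77.9% of Xbp1 TPM in replicate 1 and 81.7% in replicate 2, and Xbp1-202 held 10.3% and 10.2%. Xbp1-203 and Xbp1-204 took the rest, each under 10% in both libraries.

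Among the chaperones Hspa5, Hsp90b1 and Calr, 3 classic lumenal proteins, each exceeded 100 TPM in both libraries, as did Ppib. Hspa5 (BiP, the ER HSP70, ENSMUSG00000026864, chromosome 2, 34771970 to 34777547) was at 198 and 152 TPM, from 4129 and 2622 counts. Hsp90b1 was at 163 and 112 TPM and Calr, the calcium-binding lectin calreticulin, at 221 and 106 TPM. These 3 overlapped in level, since Calr was above Hspa5 in replicate 1 and below it and Hsp90b1 in replicate 2. Canx, the membrane-bound relative of Calr, was lower in both, at 46.8 and 25.1 TPM.

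The prolyl isomerases, which turn peptide bonds before proline, were also abundant. Ppib was at 106 and 135 TPM, Fkbp2 at 76.4 and 48.5 TPM, and Fkbp11, known from secretory tissues, at 72.5 and 86.6 TPM. Manf, a secreted factor that also binds BiP, was at 104 and 79.1 TPM and Creld2, another stress-induced secreted protein, at 50.7 and 63.8 TPM. Hyou1, a nucleotide exchange factor for BiP, was at 42.8 and 34.5 TPM.

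The J-domain proteins, which stimulate BiP, were lower than BiP itself in both libraries. Dnajb11 was at 39.1 and 39.6 TPM, Dnajc3 at 26.9 and 19.1 TPM and Dnajb9 at 31.1 and 14.5 TPM. Sdf2l1, a partner of Dnajb11, was at 13.9 and 23.9 TPM, and Erp29, a lumenal protein with a thioredoxin fold, at 20.6 and 26.3 TPM. Of Erp29 exon bases 24.4% overlap Naa25 on the opposite strand, and of Ppib exon bases 25.0% overlap Snx22 there. The sources used here do not say whether counting used strand. Naa25 was at 3.02 and 2.68 TPM and Snx22 at 0.38 and 0.11 TPM.

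The disulfide group held the most abundant member. Pdia2, the pancreatic protein disulfide isomerase (ENSMUSG00000024184, chromosome 17, 26195999 to 26199087), was at 980 and 1555 TPM and made up 27.7% and 40.4% of the TPM of all members. P4hb, the general protein disulfide isomerase, followed at 291 and 311 TPM. Pdia3, which works with Calr and Canx on glycoproteins, was at 84.4 and 50.03 TPM and Pdia6 at 44.3 and 53.7 TPM. Pdia4 was at 25.6 and 16.7 TPM, Txndc5 at 19.4 in both, Txndc11 at 14.8 and 14.7 TPM, and Erp44, which retains oxidases in the early secretory path, at 14.5 and 12 TPM. Pdia5 was the lowest isomerase at 2.37 and 3.45 TPM, from 34 and 43 counts.

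The oxidases, which supply disulfide bonds to the isomerases, differed widely. Ero1lb (Ero1b in newer annotation), known from islets and pancreas, was at 54.6 and 55.9 TPM, and its broadly expressed relative Ero1l (Ero1a) at 4.98 and 2.93 TPM. The islet markers Ins2, at 13969 and 17977 TPM, and the acinar markers were both abundant in these libraries, and the part of each cell type in Ero1lb was not tested.

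The coding sequences of these groups show 2 further features. The choice of genes did not use them directly, but both are known traits of ER folding proteins and disulfide isomerases. Their frequency among members chosen by function is thus textbook knowledge and no independent result. A codon search for a KDEL-type retrieval signal (codons for lysine, histidine or arginine, then aspartate or glutamate, then glutamate, then leucine, before the stop) found it at the end of 12 of the 41 members, or 29.3%. It was found in 45 of 21523 genes with a complete coding sequence in GENCODE M21, or 0.209%, and in 11 of the 86 other pathway genes. In the disulfide group 7 of 11 ended with it and in the chaperone group 5 of 15, with 0 of 7 among the sensors and 0 of 8 among the degradation genes. The ends of 7 members are shown to compare their codons, with the signal in capitals and the stop codon in lower case.
Hspa5: AAAGATGAGTTGtag
Hsp90b1: AAGGATGAATTGtaa
Calr: AAGGATGAGCTGtag
P4hb: AAGGATGAACTGtag
Pdia2: AAGGAGGAGCTGtag
Sdf2l1: CACGATGAACTCtga
Erp44: CGAGATGAGCTGtaa
The other 5 were Erp29, Pdia4, Pdia5, Pdia6 and Txndc5. Signals with other letters were not searched. An in-frame run of codons for cysteine, glycine, histidine and cysteine, the active site of classic disulfide isomerases, was found in 7 members, all in the disulfide group, in 37 of the 21523 genes and in 3 of the 86 other pathway genes. Pdia4 and Txndc5 held 3 such sites, P4hb, Pdia3 and Pdia6 held 2, and Pdia2 and Pdia5 held 1. Those of P4hb and Pdia2 are shown, since these 2 genes lead the group.
P4hb, first site: TGTGGCCACTGC
P4hb, last site: TGTGGTCACTGC
Pdia2: TGTGGTCACTGC

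In the degradation group Sel1l and Herpud1 were highest. Sel1l, the adaptor of the HRD1 ubiquitin ligase, was at 265 and 244 TPM, and Syvn1, the ligase itself, at 23.2 and 39.9 TPM. Herpud1, which organises the ligase complex, was at 131 and 158 TPM. The derlins, membrane proteins of the export channel, ranged over more than 8-fold in each library: Derl3, known from secretory cells, was at 72.0 and 76.0 TPM, Derl1 at 6.14 and 9.01 TPM and Derl2 at 7.43 and 4.72 TPM. Edem1 and Edem2, which trim mannose on misfolded glycoproteins, were at 36.1 and 35.9 TPM and at 39.9 and 44.7 TPM. Their order was the same in both libraries.

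For several of the most abundant members the gene level was carried by short transcripts. This was examined with the TPM of transcripts called full-length here. These hold at least 90% of the longest coding sequence among the gene's deposited transcripts, with coding lengths from GENCODE M21. For Fkbp2 the longest in M21, Fkbp2-204 with 798 coding bases, was not among the deposited ones. Both deposited Fkbp2 transcripts hold 420 and were taken as full-length. The measure was chosen after transcript levels had been seen. Pdia2-201, of 1721 bases and 527 codons, was at 425 and 472 TPM. Pdia2-204, of 539 bases and 153 codons, was at 554 and 1082 TPM. So the 2 libraries lay within 1.11-fold of each other on full-length Pdia2 and most of their gap in Pdia2 TPM was in the short transcript, which took 23.9% and 36.0% of Pdia2 counts. Full-length Pdia2, at 450 ± 32.9 TPM (SD, n = 2), remained first among members.

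In Sel1l and P4hb, too, a short transcript held a large share of TPM, but there full-length levels lay further apart between the libraries than gene levels, at 1.30-fold against 1.09-fold for Sel1l and 1.34-fold against 1.07-fold for P4hb. Sel1l-202, a noncoding transcript of 509 bases, held 52.9% and 56.0% of Sel1l TPM from 7.06% and 8.89% of its counts, and full-length Sel1l was at 99.4 and 76.2 TPM. P4hb-202, a noncoding transcript of 414 bases, held 45.7% and 51.3% of P4hb TPM from 10.5% and 10.7% of its counts, and full-length P4hb was at 90.8 and 121 TPM. By full-length TPM, Hspa5 ranked second among members in both libraries at 191 and 139 TPM, ahead of P4hb and Sel1l, which by gene TPM were ahead of it in both libraries. For Calr the retained intron form Calr-204 held 50.2% and 27.5%, and full-length Calr was at 105 and 72.2 TPM, so the gap between libraries was smaller there than for the gene. The same held for full-length Canx, at 29.4 and 24.3 TPM, and full-length Eif2ak3, at 8.39 and 7.95 TPM. The gap was larger than for the gene in Dnajb11, at 1.52-fold against 1.014-fold, and in Erp44, at 2.09-fold against 1.21-fold. Erp29 was the member least covered: its full-length transcript Erp29-203 was at 0.83 and 0.82 TPM, and Erp29-201, annotated with 55 codons, at 16.6 and 19.5 TPM.

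Among the 25 members with a mean of 100 counts or more and at least 2 transcripts, the median full-length share of TPM was 77.9% and 81.7%, close to the 75.9% and 75.7% of the 3649 protein-coding genes with the same minimum. It was under 50% in both libraries for 4 of the 25 members (Erp29, Sel1l, P4hb and Pdia2), or 16%, against 24.1% of those genes. The main transcript was the same in both libraries for 22 of the 25. The 5 members with the largest change in main share were Erp44, Dnajb11, Canx, Fkbp2 and Herpud1. Erp44-201 went from 100% to 57.7%, Dnajb11-201 from 99.6% to 62.9%, Canx-201 from 45.9% to 78.5%, Fkbp2-202 from 38.3% to 68.5% and Herpud1-205 from 67.0% to 40.8%. By counts the Erp44-201 share was 100% and 92.1%, so few reads lay behind that shift. Count shares were 99.5% and 86.7% for Dnajb11-201 and 64.8% and 78.5% for Canx-201, so these shifts, too, were smaller by counts. They were 37.5% and 67.8% for Fkbp2-202 and 85.4% and 60.6% for Herpud1-205. Reads shared by transcripts are divided by a model, so all these shares are estimates.

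**Figure D3:**
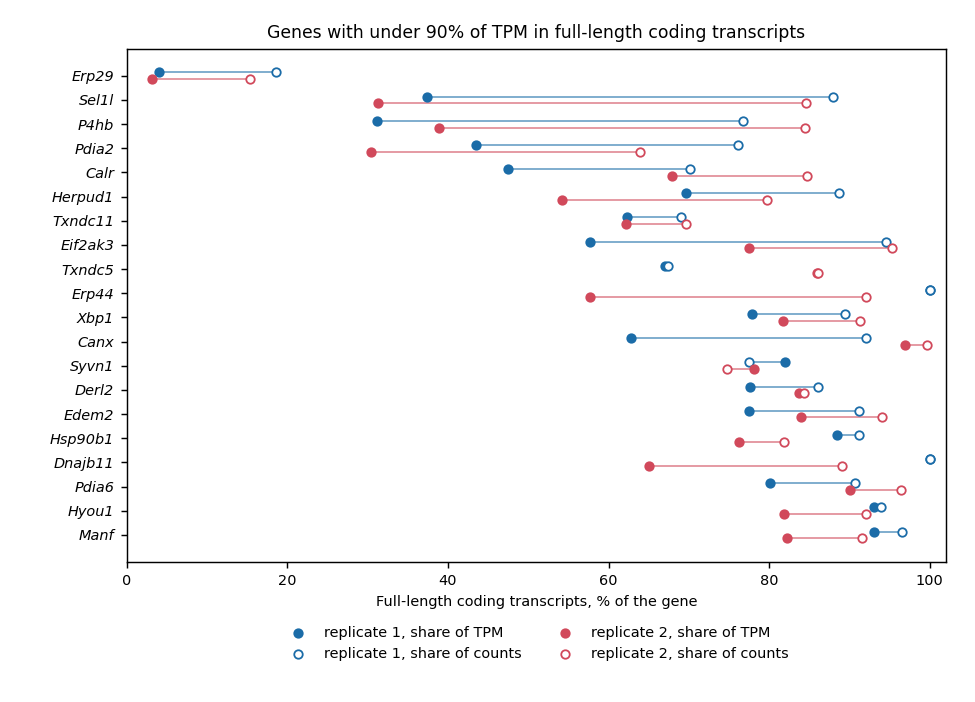
Share of each gene in its full-length coding transcripts, in percent, for the 20 members with a mean of 100 counts or more and a TPM share under 90% in either library. Filled points are shares of TPM and open points shares of counts, in blue for replicate 1 and red for replicate 2. For Sel1l, P4hb and Pdia2 the TPM share is under 50% while the count share is above 60%.

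Ratios of partner genes within a library do not depend on the scaling between libraries. Hsp90b1 stood at 0.820 and 0.742 of Hspa5, and Hyou1 at 0.216 and 0.228 of Hspa5. Canx stood at 0.212 and 0.236 of Calr. These 3 gene ratios moved by under 1.2-fold between libraries. On full-length transcripts they were 0.753 and 0.618, 0.208 and 0.204, and 0.281 and 0.337, in that order. Ero1lb exceeded Ero1l 10.96 and 19.1 times, Derl3 exceeded Derl1 11.7 and 8.43 times, and Pdia2 exceeded P4hb 3.37 and 4.997 times, or 4.70 and 3.90 times on full-length transcripts. Sel1l exceeded Syvn1 11.5 and 6.11 times, but 5.23 and 2.45 times on full-length transcripts.

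In the sensor group Xbp1 exceeded Atf4 1.82 and 2.06 times, and Ddit3 stood at 0.266 and 0.255 of Atf4. On full-length transcripts these ratios were 1.41 and 1.69 for Xbp1 and 0.187 and 0.241 for Ddit3. Sdf2l1 exceeded its relative Sdf2 2.40 and 2.05 times. Dnajb11 exceeded Dnajb9 1.26 and 2.73 times. The order of Derl2 and Derl1 turned, with ratios of 1.21 and 0.524, so it is not fixed by these data. Edem2 exceeded Edem1 1.11 and 1.25 times by gene, and stood at 0.857 and 1.05 on full-length transcripts. Atf6 stood at 0.849 and 0.708 of its relative Atf6b, and on full-length transcripts at 1.13 and 0.684. Ern2, the IRE1 of mucous epithelia, was listed at 0 in both libraries, where 3 counts allow up to 0.318 and 0.306 CPM (counts scaled to a fixed library total). Cdnf, paired with Manf, had 2 and 1 counts, so the ratio of Manf to Cdnf is not read.

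**Figure D4:**
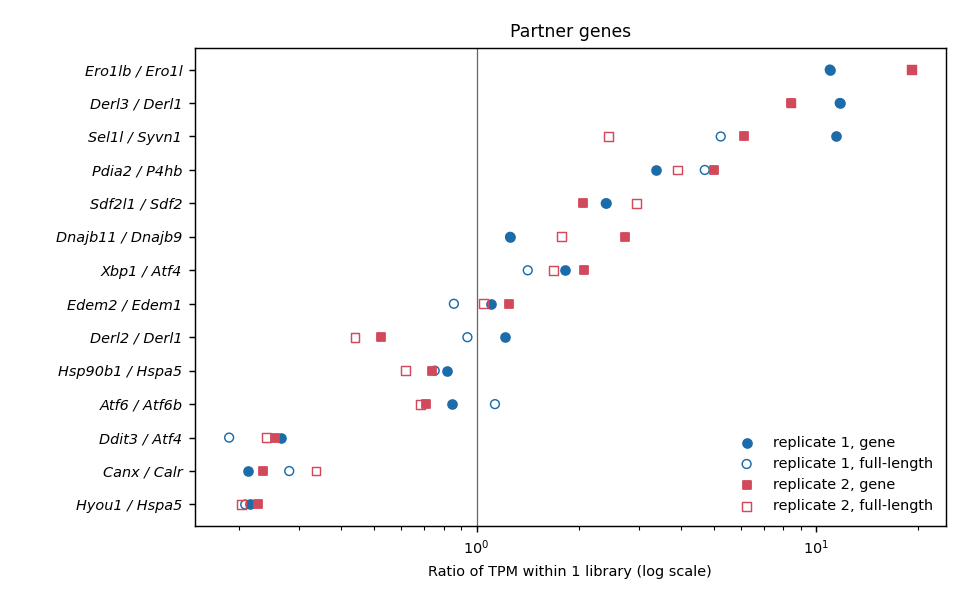
Ratio of TPM within 1 library (log axis) for 14 partner pairs, with circles for replicate 1, squares for replicate 2, filled for the gene and open for full-length transcripts. The vertical line marks a ratio of 1. Ern1 to Ern2 and Manf to Cdnf are not drawn, since their second gene had 3 counts or fewer in each library. Derl2 to Derl1 lies on both sides of it by gene, while Ero1lb to Ero1l and Derl3 to Derl1 lie well to its right.

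The 2 libraries were set against each other to see how far a member's level depends on the library. After TMM scaling, a two-sided exact binomial test was run on the counts of each of 12452 genes with a mean of 10 counts or more, with Benjamini-Hochberg adjustment over all of them. This compares 2 libraries of 1 tissue and covers counting error only. The spread between the libraries was larger than that. Chi-square per degree of freedom over the tested genes was 246, where counting error alone gives about 1. It was 31.4 without Gm42418, Gm26917, Lars2, mitochondrial genes and their nuclear copies. The p values and intervals below are therefore too narrow for the spread between the libraries. To be called, a gene had to differ by at least 1 on the log2 scale and have an adjusted p below 0.05. Of the 40 members tested, 1 was called higher in replicate 2, where 8.31% of all genes were called higher, and 0 were called lower, where 4% of all genes were. The called member was Sdf2l1, with 115 and 172 counts. Its log2 ratio was 1.06, with an exact 95% interval from 0.71 to 1.42, and its adjusted p in the exact binomial test was 1.2e-08. With the GC and length trend removed Sdf2l1 fell short of the size threshold at 0.58, so 0 members were called higher, where 4.14% of all genes were, and Fkbp2, which has 57.8% GC, was called lower at -1.02, where 3.79% of all genes were. With library totals in place of TMM 0 members were called higher, where 2.75% of all genes were, and Dnajb9, Calr, Pdia3, Erp44 and Ero1l were called lower, where 20.9% of all genes were.

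Smaller differences between the libraries were common. By adjusted p alone 30 of the 40 tested members passed, 18 of them higher and 12 lower in replicate 2. Of all tested genes 36.2% passed in either direction, and that share was not split by direction. The p depends on the number of counts, and these shares were not matched for depth. Of 7729 genes with a mean of 50 counts or more, 5.73% were called higher and 2.67% lower by both thresholds. Of the 39 members among them 1 was called higher and 0 lower. Under an assumed dispersion of 0.1 the edgeR exact test called 0 members and 0.361% of all genes. The median log2 ratio of members was 0.13, against -0.01 over all tested genes. By role it was 0.06 for sensors, -0.17 for chaperones, 0.28 for the disulfide group and 0.34 for degradation. With the GC and length trend removed the 4 medians were -0.09, -0.04, 0.20 and 0.30, so that of the sensors changed sign. All 4 were below 0 with library totals, which lower every ratio by 0.54. Syvn1, at 634 and 876 counts, had a log2 ratio of 0.95 (0.80 to 1.10), and Derl1 one of 0.82 (0.52 to 1.13). At the other end Dnajb9, at 463 and 187 counts, had a log2 ratio of -0.82 (-1.08 to -0.58), Erp44 one of -0.67 (-0.97 to -0.38) and Calr one of -0.53 (-0.63 to -0.44).

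These ratios moved with base composition. Over the 40 members the log2 ratio and the GC content of the transcript had a Spearman rho of 0.551, across genes that share both libraries. The GC content and length of a gene were taken from its transcript with the highest mean TPM. For Sel1l, P4hb and Pdia2 this was the short transcript, while most counts of these genes came from other transcripts. The 20 members with the lower GC content, from 40.1% to 50.6%, had a median log2 ratio of -0.20, and 15 of them were below 0. The 20 with the higher content, from 51.2% to 58.9%, had a median of 0.44, and 3 of them were below 0. With the trend over all genes on GC content and length removed, the medians were -0.04 and 0.21, with 11 and 6 below 0. The part of GC content in the difference between any 2 members was not tested.

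**Figure D5:**
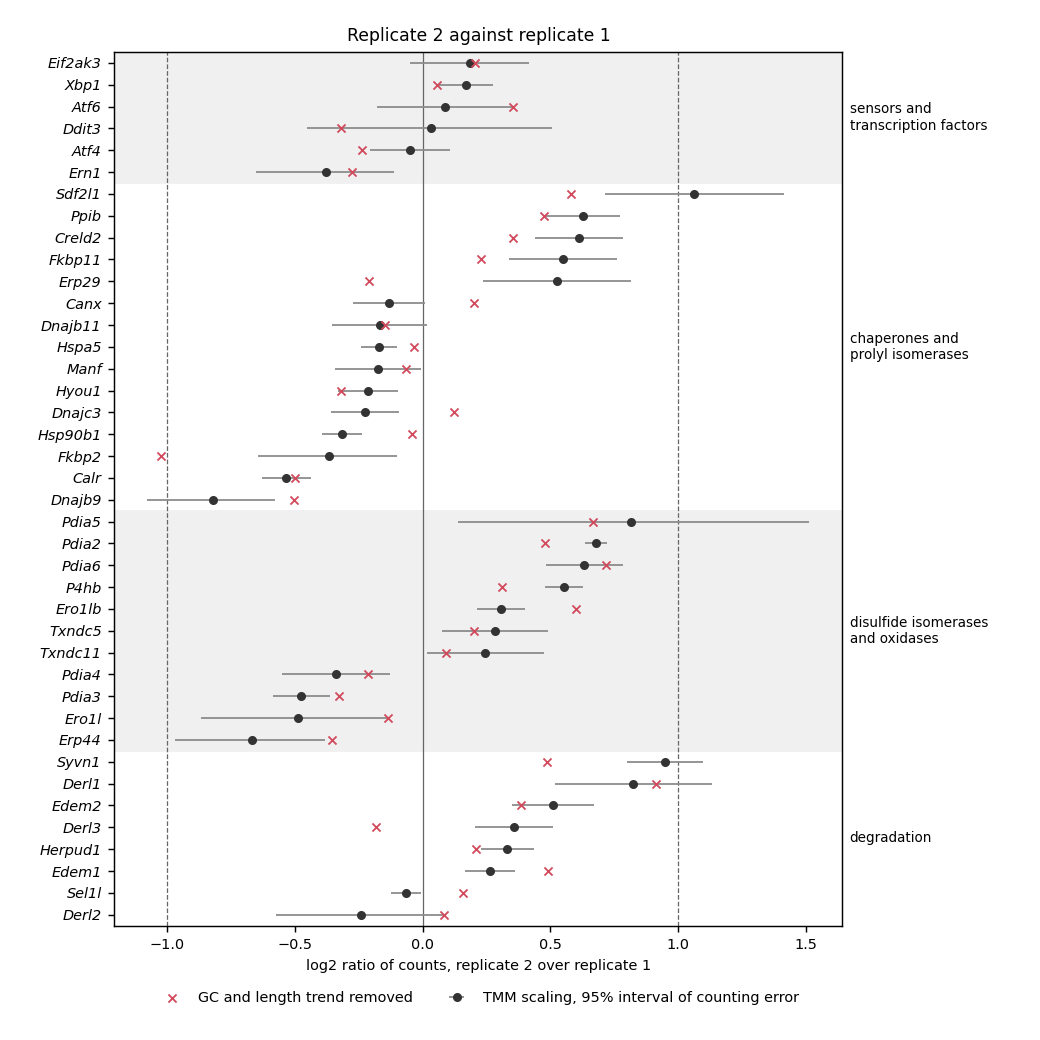
Log2 ratio of counts, replicate 2 over replicate 1, for the 40 tested members by role. Points are TMM-scaled ratios with 95% intervals of counting error, crosses have the GC and length trend removed, and dashed lines mark the size threshold of 1. Sdf2l1 is the only point past a dashed line, and Fkbp2 the only cross past one.

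The other genes of the pathway gave a wider range. They were 86 genes chosen by function (22 of sensing and the PERK branch, 24 of folding, 16 of disulfide chemistry and 24 of degradation), and 73 were at 1 TPM or more in both libraries. Their medians were 6.06 and 5.86 TPM. Nupr1, a stress-induced nuclear protein of the pancreas, was above every member in both libraries at 3877 and 1909 TPM. Serp1, which protects new membrane proteins, was at 96.4 and 59.7 TPM, Sep15 (Selenof), a selenoprotein of glycoprotein folding, at 66.0 and 45.5 TPM, Vimp (Selenos), a selenoprotein of ER degradation, at 57.3 and 31.9 TPM and Aup1, a degradation factor, at 45.1 and 38.6 TPM. Prdx4, an ER peroxidase, was at 34.4 and 46.5 TPM, Os9, a lectin of degradation, at 35.3 and 23.4 TPM and Bhlha15 (MIST1), the acinar transcription factor, at 25.8 and 29.1 TPM.

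Of the 75 of these genes tested, 4 were called higher in replicate 2, where 8.31% of all genes were, and 1 lower, where 4% were. Selm (Selenom) had a log2 ratio of 1.43, Chac1, a target of ATF4 and CHOP, 1.22, Sdf2 1.08 and Cebpb, a transcription factor, 2.46 from 6 and 25 counts. Creb3l1, an ER-bound transcription factor, had -1.21. With the GC and length trend removed none of the 4 was called, at 0.35, 0.69, 0.98 and 0.09, where 4.14% of all genes were called higher, and Creb3l1, at -1.93, and Nupr1, at -1.23, were called lower, where 3.79% were.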

How the data were processed

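Polyadenylated RNA of 1 pancreas was measured in 2 technical libraries. The sources used here name no aligner or quantifier, and build mm10 and GENCODE M4 are named per the deposited README files. Per the file headers, the authors deposited an expected count (an estimate), TPM, FPKM, a posterior mean count and a posterior mean TPM (entered as a signal) for each gene and transcript, and an isoform percent. Expected counts were rounded to whole numbers. Symbols, coding sequences and positions came from GENCODE M21 (GRCm38) and matched 42462 of 43346 gene rows. The 26345 rows that name no gene held 0 counts. Promoter windows came from RefSeq.

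TMM factors were computed by edgeR 4.0.16 (R 4.3.3). Its quasi-likelihood fit has no residual degrees of freedom for 1 library against 1, so an exact binomial test was used, with 0.5 added to both counts for ratios. A count of 0 allows up to 3 counts. Alternatives used DESeq2 1.42.0 size factors and an mgcv 1.9.3 trend on the GC content and length of each gene's transcript with the highest mean TPM. BLAST+ 2.17.0 located the nuclear copies that were left out (at least 95% identity and 90% coverage). Python 3.11.15 was used with scipy 1.17.1.

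Tested on simulated counts for replicate 2 against replicate 1, with 12436 genes tested, the procedure called 35.4% of 99 genes changed 2-fold, 87.9% of 99 changed 4-fold and 3 of 12238 unchanged genes. The simulated counts held counting error only, with no effect of GC content or transcript length. The last share is therefore no rate of false calls for the real libraries.

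The members and lists were chosen with earlier results of these data known. Named are all members, the other pathway genes with the 8 highest levels, those called and those in the pairs, and for isoforms Xbp1 and the 5 members with the most different main share. Transcripts of Pdia2, Sel1l, P4hb, Calr and Erp29 and the gene Calr4 were named after their values were seen.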

Additional observations from a re-analysis of the deposited data

How the results depend on the processing

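Of 41 members, 40 were at 1 TPM or more in both libraries, and 40 with FPKM, posterior mean TPM, rescaled TPM or a minimum of 0.5 TPM, 35 at a minimum of 5 TPM and 39 on full-length transcripts. The mean of the 2 library medians was 39.8 TPM. It was 33.7 in FPKM, 37.5 in posterior mean TPM, 72.7 in TPM rescaled without Gm42418, Gm26917, Lars2 and mitochondrial genes with their copies, and 33.3 on full-length transcripts, an alternative chosen after seeing the data. The members' share of the total was 0.370%, 0.341% by posterior mean TPM, 0.676% rescaled and 0.223% on full-length transcripts. Leaving out either library gave medians of 39.6 to 39.9 TPM and shares of 0.354% to 0.385%.

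The 1 member called higher became 0 with library totals, with the trend removed and with the edgeR exact test. With no count filter the number was 2, since Trib3 joined from 2 and 10 counts. There 6.59% of 17934 genes were called higher. The 0 called lower became 5 with library totals and 1 with the trend removed. The median log2 ratio of members was -0.41 with library totals and that of the other pathway genes -0.45. For the other pathway genes, 4 called higher became 1 with library totals and 0 with the trend removed, where 2.75% and 4.14% of all genes were called higher, and 1 called lower became 12 and 2, where 20.9% and 3.79% were called lower. The median main isoform share was 77.0% of TPM and 86.4% of counts. Exact stress elements in 10 members became 19 with 1 mismatch allowed. The causes of these shifts were not tested. No paired analysis was possible because there is 1 group, and leaving out a library leaves no library comparison. Among named genes, depth limits Trib3, Cdnf, Ern2, Calr4 and Cebpb, each at 10 counts or fewer in 1 library or both.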
